A study of Mus musculus with 9 samples.

Results

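Glypicans and syndecans are the cell-surface proteins that carry heparan sulphate, and their transcripts were followed here across caudal epiblast-like cells (CEpiLCs) of 3 genotypes. The members were all rows of the deposited gene table with the symbols Gpc1 to Gpc6 and Sdc1 to Sdc4, which gave 10 genes (6 glypicans and 4 syndecans) of 24736. Poly(A) RNA was sequenced from 9 mouse cultures, 3 each of WT, CdxKO (Cdx1, Cdx2 and Cdx4 all mutant) and T/BraKO (T, also named Bra, mutant). According to the paper, all ESC lines came from the XY HM1 TetON line, which served as WT, and it cites an earlier study for the mutant ESCs. The labels name no clone, so that a mutation and the line carrying it cannot be told apart. All cultures received bFGF at 10 ng per ml and LGK974 at 5 uM, an inhibitor of the acyltransferase that WNT ligands need to leave the cell, and later also CHIR99021, which inhibits GSK3 and so activates the pathway below the receptor. Cells were harvested at 72 h, on day 3.

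Glypicans are held in the outer leaflet of the membrane by a glycosylphosphatidylinositol (GPI) anchor, whereas syndecans span the membrane and have a short cytoplasmic tail. The sulphated sugar chains on both bind FGFs, WNTs, BMPs and other secreted signals, and FGF receptors use heparan sulphate as a co-receptor. In the gastrulating embryo and in stem cells these chains are needed for FGF signalling and for the exit from pluripotency.

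The libraries held 25124344 to 34705361 expected counts, which are estimated reads per gene. T had 10900 to 14760 normalised counts (counts divided by a library's size factor) in WT and 1777 to 2894 in T/BraKO. Cdx4 had 59.97 to 160.9 in WT and 1.254 to 1.881 in CdxKO, and Cdx2 and Cdx1 were also lower in every CdxKO library than in any WT library. All 10 caudal epiblast markers on the list used here had a mean above 1 TPM in WT. Same-numbered libraries of different genotypes deviated together from their group means. Each comparison is therefore given both plainly and with a term for that number, called the block. With the block, 7 of these 10 markers were called lower in CdxKO than in WT (5 without it), beside 5.31% of all genes. In T/BraKO with the block, Nkx1-2, Cdx1, Cdx2, Sp5 and Evx1 were higher, and T, Fgf8 and Wnt3a lower, beside 9.68%. Without the block, Sp5 was higher there and the same 3 were lower.

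The promoters of the member called in the plain comparison of T/BraKO with WT (Gpc3) and of the syndecan that moved the other way with the block (Sdc1) are shown first, for the letters they hold. The RefSeq windows of GRCm38.p6 reach to 250 bases before the annotated start, and the Sdc1 window is cut where its GENCODE gene begins. Gpc3 is read on the minus strand of chrX:52613975-52614224, and Sdc1 on the plus strand of chr12:8771146-8771322. Both are printed 5′ to 3′, with GC boxes (GGGCGG or its complement, the letters bound by SP-family factors) in capitals.
Gpc3: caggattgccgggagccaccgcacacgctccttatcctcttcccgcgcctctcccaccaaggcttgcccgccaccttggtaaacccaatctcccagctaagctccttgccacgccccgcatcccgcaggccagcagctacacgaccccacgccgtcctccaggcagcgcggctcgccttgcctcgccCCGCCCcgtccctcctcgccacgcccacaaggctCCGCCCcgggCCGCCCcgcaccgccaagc
Sdc1: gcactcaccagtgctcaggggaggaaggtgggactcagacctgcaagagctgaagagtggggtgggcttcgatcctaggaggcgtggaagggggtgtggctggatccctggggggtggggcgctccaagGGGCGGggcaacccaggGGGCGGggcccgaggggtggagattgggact

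The Gpc3 stretch held 3 GC boxes and the Sdc1 stretch 2. RefSeq windows were found for 7 of the 10 members (Gpc2, Gpc3, Gpc4, Gpc5, Sdc1, Sdc3 and Sdc4), and over the whole 250 bases each held 1 to 4 GC boxes, a motif present in 32.7% of all 32851 windows. Their GC content was 51.2% (Gpc5) to 76.4% (Sdc3), with 71.6% in Gpc3, beside a median of 52.4% over all windows. On either strand, none of the 7 held TCACACC (a T-box half-site), TTTATNG (a CDX site) or CTTTGAT (a TCF/LEF site), which 3.33%, 9.81% and 3.21% of all windows hold. This says only that these letters are not in these windows.

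Gpc3 and Gpc4 are neighbours on the X chromosome (GRCm38, GENCODE M21, minus strand). Gpc3 runs from 52272426 to 52613950 and Gpc4 from 52053021 to 52165252, with 107.2 kb between them. Gpc5 (115092215 to 116525179) and Gpc6 (116925315 to 117976544) form the same kind of pair on the plus strand of chromosome 14, 400.1 kb apart. The other members lie singly, Gpc1 on chromosome 1, Gpc2 on 5, Sdc1 on 12, Sdc2 on 15, Sdc3 on 4 and Sdc4 on 2. The opposite-strand genes A630012P03Rik, which spans the Gpc3 start and the printed Gpc3 promoter, and 4930505G20Rik, inside Gpc5, had no count in any library, and Ankmy1, which overlaps Gpc1, had at most 10.03 normalised counts. The printed Sdc1 promoter also overlaps another annotated gene, Gm4755.

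The cells carried a pool dominated by Gpc3, Gpc1 and Sdc1. Levels between genes are compared in TPM, the read count per length of transcript scaled to the library. In WT, Gpc3 had 78.8 ± 17.4 TPM (mean ± SD, n = 3), Gpc1, the glypican common in neural and muscle progenitors, 64.3 ± 4.88, and Sdc1, the epithelial syndecan, 52.2 ± 9.63. The Gpc3 and Gpc1 ranges overlapped, and Gpc1 did not overlap Sdc1. A middle tier followed without overlap with Sdc1: Gpc4 at 25.2 ± 5.04 and Sdc2 at 24.98 ± 3.70 overlapped each other. Gpc2 (17.3 ± 2.82) came next, below both in every library, then Sdc4 (17.3 ± 4.82), whose range of 13.6 to 22.7 TPM reached from Gpc6 (13.2 ± 1.84) up to Sdc2 and Gpc4, and Gpc2 and Gpc6 also overlapped. Sdc3, the neuronal syndecan, had 6.26 ± 1.59 TPM and Gpc5 0.533 ± 0.112, each apart from its neighbour.

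**Figure D1:**
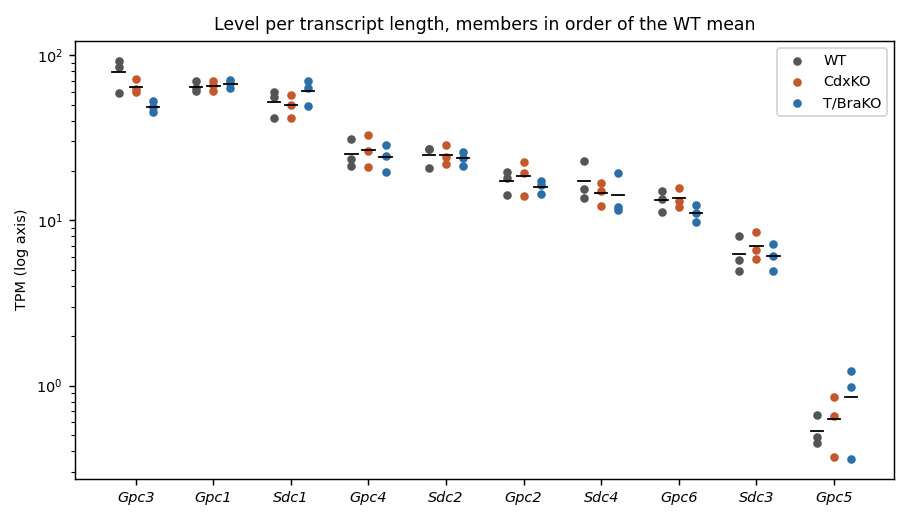
TPM (log axis) of the 10 members in every library, in order of the WT mean, with points for libraries coloured by genotype and black bars for group means (n = 3). Gpc3, Gpc1 and Sdc1 sit above the other members in all 3 genotypes, and Gpc5 sits near or below 1 TPM.

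Gpc1, Gpc3 and Sdc1 together made up 65.1% ± 3.38 of the summed member TPM in WT cells, 62.9% ± 3.49 in CdxKO cells and 64.8% ± 3.55 in T/BraKO cells (mean ± SD, n = 3). Their order was not the same in each genotype. Gpc3 led in WT by mean, Gpc1 and Gpc3 were level in CdxKO (65.3 ± 4.86 and 64.5 ± 6.62 TPM), and in T/BraKO Gpc1 (67.2 ± 4.02) and Sdc1 (60.5 ± 10.3) had higher means than Gpc3 (48.8 ± 3.93), the last of these overlapping Sdc1. Gpc3 took 22.4% to 28.2% of the summed member TPM in WT, 21.0% to 23.9% in CdxKO and 17.7% to 18.2% in T/BraKO. The 6 glypicans summed to 167.0 to 219.3 TPM in WT and 153.0 to 178.9 in T/BraKO, ranges that overlap, and the 4 syndecans to 96.1 to 108.5 and 100.5 to 112.2.

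**Figure D2:**
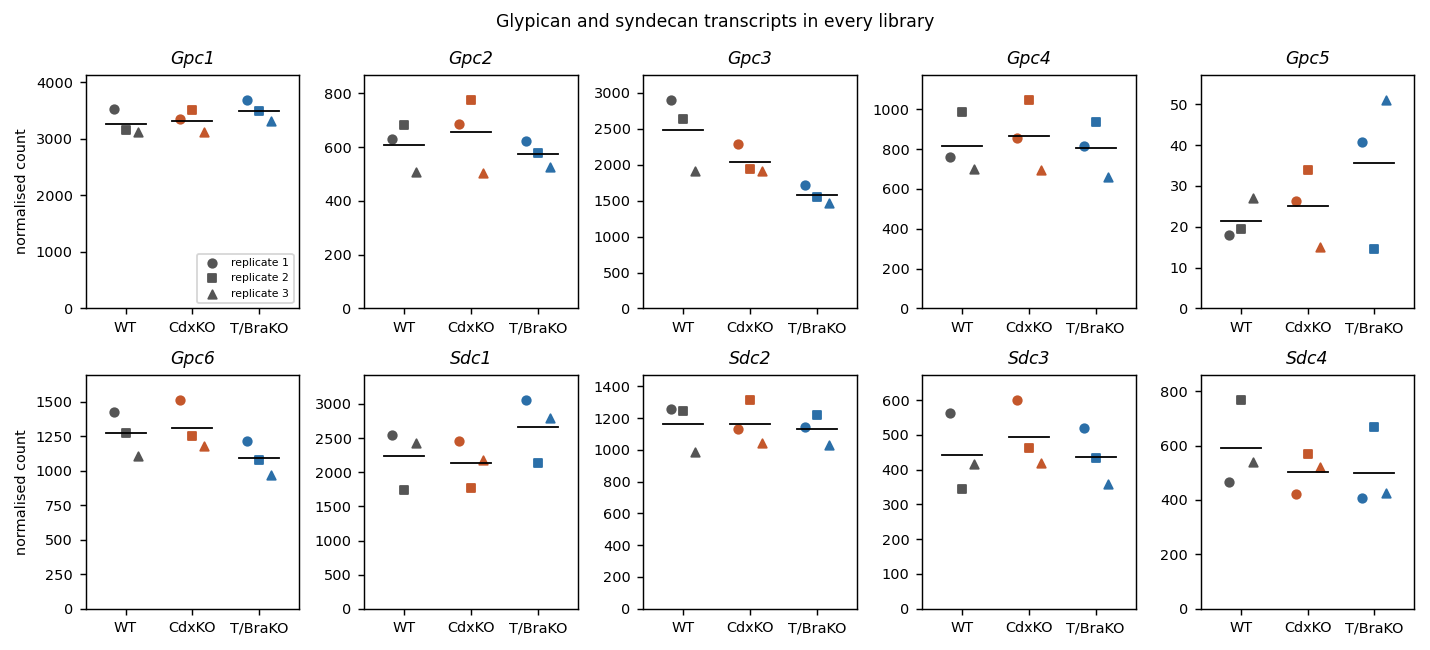
Normalised count of each member in every library, with the axis from 0 in each panel, a marker shape for each replicate number and black lines for group means (n = 3). Gpc3 was lower in all 3 T/BraKO libraries than in any library of the other genotypes, and the marker shapes of Sdc1, Gpc4 and Sdc4 fall in a like order in each genotype.

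Gpc3 fell in T/BraKO cells, with or without the block. Gpc3 is a regulator of body size that restrains Hedgehog signalling and whose loss in humans causes an overgrowth syndrome. The WT libraries had 2905, 2629 and 1909 normalised counts, the CdxKO libraries 2282, 1933 and 1908, and the T/BraKO libraries 1712, 1554 and 1472. Every T/BraKO library was below every library of the other genotypes, whereas WT and CdxKO overlapped. Libraries that did not overlap were found for this member in T/BraKO against either other genotype, and for no other member in any comparison, beside 9.24% of all genes tested in T/BraKO against WT, 15.1% in CdxKO against T/BraKO and 9.83% in CdxKO against WT. Gpc3 fell by 0.65 on the log2 scale in T/BraKO against WT (SE 0.17, adjusted p 0.0117 by DESeq2), the only member called of 10, where 1.08% of all genes tested were called.

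With the block the Gpc3 estimate was -0.64 (SE 0.087, adjusted p 4.27e-11), which is 0.643 of the WT level with a 95% interval of -0.81 to -0.47 on the log2 scale, and T/BraKO was lower in all 3 same-numbered pairs. Without the block, the call depended on single libraries. The adjusted p was 0.241 without WT replicate 1, 0.131 without WT replicate 2, 0.0691 without T/BraKO replicate 2 and 0.131 without T/BraKO replicate 3, and 0.173 by edgeR's quasi-likelihood test. With the block Gpc3 was called in all 9 fits that left out 1 library, with log2 fold changes of -0.76 to -0.56, and by edgeR (adjusted p 0.00156).

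In CdxKO, Gpc3 stood between the other genotypes. None of the 10 members was called in CdxKO against WT without the block, where 0.693% of genes were called (116, with 849 at an unadjusted p of at most 0.05), and none was called by edgeR either. With the block 5.31% of genes and 1 member were called. Gpc3 then fell by 0.27 on the log2 scale (SE 0.087, adjusted p 0.0396), with the lower value in CdxKO in the pairs numbered 1 and 2, while the replicate 3 libraries were level (1909 in WT and 1908 in CdxKO, or 59.3 and 59.5 TPM). The adjusted p was 0.0908 by edgeR with the block and 0.0622 with the block in the 6 libraries compared. It was 0.597 and 0.647 without WT replicates 1 and 2, 0.368 and 0.389 without CdxKO replicates 1 and 2, and 0.0894 and 0.0704 without T/BraKO replicates 1 and 3. In the direct comparison with the block, Gpc3 was higher in CdxKO than in T/BraKO by 0.37 on the log2 scale (SE 0.088, adjusted p 0.000492, or 0.329 without the block), and the adjusted p was 0.0535 without CdxKO replicate 3.

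Gpc3 lies beside a locus at which the lines differ. Hprt, the purine salvage enzyme whose gene starts 374.2 kb from the Gpc3 start, had 16.8 to 28.1 normalised counts in WT, 20.5 to 25.1 in CdxKO and 3590 to 4138 in T/BraKO. The T/BraKO cells thus differed from WT at the Hprt locus as well as at T, and the part of that difference in the Gpc3 result cannot be told apart from that of T. Of the 12 listed genes in this neighbourhood, only Gpc3 and Hprt were called in T/BraKO against WT, with or without the block. Over all genes tested, 1.08% were called without the block and 9.68% with it. Gpc4, next to Gpc3 on the far side from Hprt, had a log2 fold change of -0.02 (block SE 0.093, 95% interval -0.20 to 0.16). Ccdc160, between Gpc3 and Hprt, stood at 0.01 (block SE 0.146). The chromatin reader Phf6, also between them, stood at 0.13 (block SE 0.060, adjusted p 0.183). In CdxKO against T/BraKO with the block, Phf6 (-0.26, adjusted p 0.000259) and Mospd1, beyond Hprt (-0.38, adjusted p 0.000108), were also called. There 14.6% of all genes were called, and without the block neither gene was (adjusted p 0.192 for each).

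**Figure D3:**
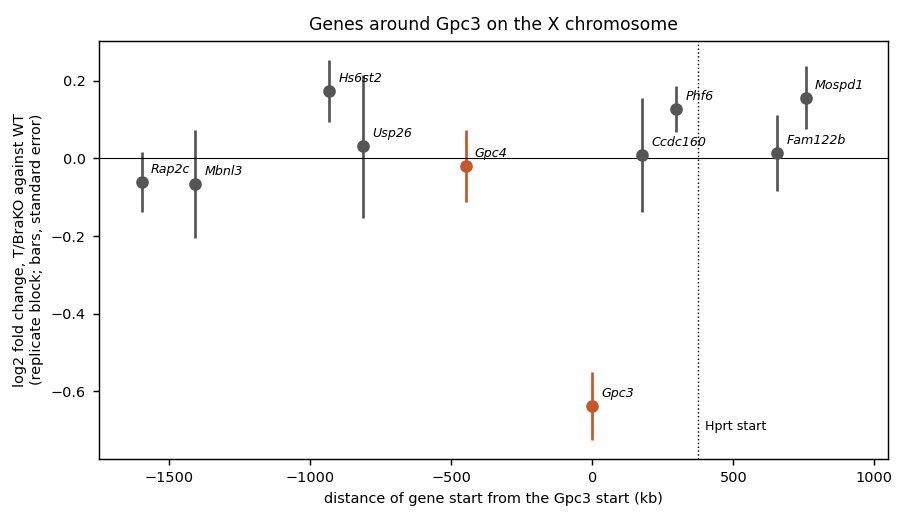
Log2 fold change in T/BraKO against WT with the replicate block (bars, SE) for the 10 neighbourhood genes with a group mean of at least 50 normalised counts, by distance of their start from the Gpc3 start in kb; Hprt is off the scale and marked by a dotted line, and Plac1 is left out for low counts. Gpc3 sits at -0.64 and the other genes between -0.07 and 0.17.

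Markers of other cell types and states also differed between the genotypes. The 5 paraxial mesoderm markers (Tbx6, Msgn1, Meox1, Tcf15 and Foxc2) summed to 26.0 to 46.9 TPM in WT, 14.4 to 64.6 in CdxKO and 4.40 to 6.03 in T/BraKO. Only Tbx6 (-3.30 with the block) and Msgn1 (-5.6) were called in T/BraKO against WT, with or without the block. Tcf15 stood at -0.435 (adjusted p 0.492). Meox1 (-0.09) and Foxc2 (-2.08), both with low counts, had no adjusted p there with the block. The 5 lateral and extraembryonic mesoderm markers (Hand1, Foxf1, Kdr, Bmp4 and Tbx4) summed to 14.5 to 18.8, 21.1 to 25.1 and 7.85 to 12.7 TPM, but did not move together. With the block Hand1 (2.46 on the log2 scale) and Bmp4 (0.59) rose in CdxKO against WT, while Kdr stood at -0.46 (adjusted p 0.0792). In T/BraKO Kdr (-0.99) and Bmp4 (-0.55) fell, while Hand1 stood at 0.25 (adjusted p 0.687). Without the block only the Hand1 rise was called. The 7 fibroblast markers (for feeder cells, on which ESCs were kept) summed to 33.9 to 59.4, 41.8 to 77.9 and 33.0 to 54.5 TPM. No marker of these lists was at 0 in all libraries of a group. The 7 fibroblast markers did not move together. With the block Col1a1 and Col1a2 rose and Thy1 fell in CdxKO against WT, while in T/BraKO Col1a1, Col1a2 and Postn fell and Thy1 stood at 0.46 on the log2 scale (adjusted p 0.0552). The 5 primed epiblast markers summed to 872 to 1419 TPM in WT, 1021 to 1501 in CdxKO and 1260 to 1826 in T/BraKO. Most of that sum was Pou5f1, with means of 880 TPM in WT and 1241 in T/BraKO. With the block Pou5f1 (0.55, adjusted p 3.01e-14, or 0.491 without) and Dnmt3b (0.36, adjusted p 3.1e-09, or 1 without) rose in T/BraKO. Fgf5 (0.93, adjusted p 0.205), Otx2 (0.25, adjusted p 0.544) and Sox2 (0.01, adjusted p 0.986) were not called there. Of the 4 definitive endoderm markers only Foxa2 had an adjusted p in T/BraKO with the block, and it fell by 1.40 on the log2 scale (adjusted p 0.0187, or 1 without). The other 3 did not fall with it, with estimates of 0.67 for Sox17, 0.65 for Gsc and 0.03 for Cer1. The part of these cells and states in the Gpc3, Gpc6 and Sdc1 results was not tested, and in bulk RNA fewer cells of a type and less RNA per cell cannot be told apart.

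**Figure D4:**
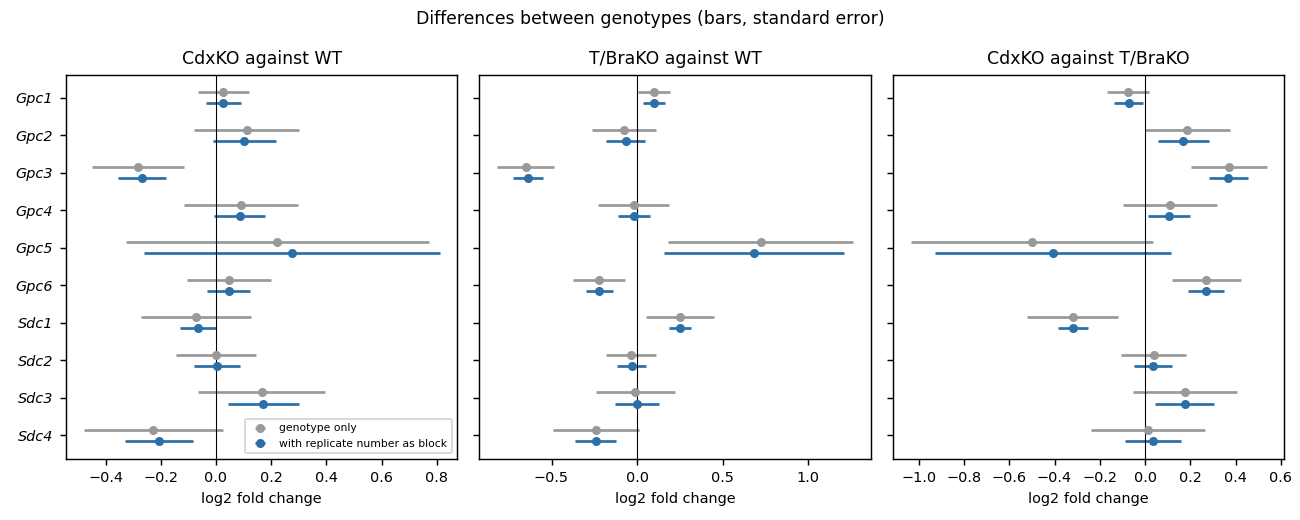
Log2 fold change of the 10 members in each comparison (bars, SE), grey from the fit with genotype only and blue from the blocked fit. The estimates hardly move between the fits while the bars shorten for most members, and Gpc5 keeps the widest bars.

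Gpc6, a glypican of growth plate and synapse, was lower in T/BraKO by a small margin. The WT libraries had 1428, 1275 and 1106 normalised counts, CdxKO 1512, 1249 and 1175, and T/BraKO 1215, 1079 and 969.6. The groups overlapped, but within each number T/BraKO was the lowest genotype. In T/BraKO against WT with the block, where 9.68% of genes and 3 of 10 members (Gpc3, Gpc6 and Sdc1) were called, Gpc6 fell by 0.22 on the log2 scale (SE 0.079, adjusted p 0.0498, or 1 without the block). Left with 8 libraries, no blocked fit called it, with adjusted p from 0.0581 to 0.331, and the blocked fit to the 6 libraries compared gave 0.154.

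In CdxKO against T/BraKO no member was called without the block, where 3.48% of genes were called (558, with 1760 at an unadjusted p of at most 0.05) and edgeR called none of the members either. With the block the same 3 members were called beside 14.6% of all genes. Gpc6 was higher in CdxKO by 0.27 (SE 0.078, adjusted p 0.00726, or 0.548 without the block). Its adjusted p was 0.0634 without CdxKO replicate 1, 0.0712 without CdxKO replicate 3, 0.0561 without T/BraKO replicate 1 and 0.0511 without T/BraKO replicate 3, and 0.0700 with the block in the 6 libraries compared. In CdxKO against WT the Gpc6 difference was 0.05 (95% interval -0.11 to 0.20 with the block).

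Sdc1, which holds epithelial cells to matrix and binds growth factors, was higher in T/BraKO. The WT libraries had 2547, 1747 and 2430 normalised counts, CdxKO 2457, 1763 and 2182, and T/BraKO 3060, 2138 and 2793. The groups overlapped across numbers because the replicate 2 library was the lowest in each genotype, while T/BraKO was the highest genotype within each number. With the block Sdc1 rose by 0.25 on the log2 scale in T/BraKO against WT (SE 0.065, 1.19-fold, adjusted p 0.00298, or 1 without the block), and the adjusted p was 0.0587 without WT replicate 1 and 0.0791 without WT replicate 2. Against CdxKO the difference was -0.32 for CdxKO minus T/BraKO (SE 0.065, adjusted p 3.34e-05, or 0.639 without the block), and it was called in all 9 blocked fits that left out 1 library. CdxKO and WT differed by -0.07 (95% interval -0.20 to 0.06 with the block).

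The other 7 members were not called in any comparison, with or without the block. Gpc1 had 3126 to 3526 normalised counts in WT, 3115 to 3513 in CdxKO and 3313 to 3697 in T/BraKO. Gpc2, a glypican of developing neurons, had 509 to 681.9, 502.3 to 776.8 and 526.5 to 623.3, and Gpc4, which stimulates FGF and WNT signalling, 700.1 to 984.7, 696 to 1049 and 660.1 to 935.2. Sdc2, a partner of FGF and TGF-beta ligands, had 984.5 to 1258, 1042 to 1314 and 1031 to 1221. Sdc3 had 344.3 to 562.6, 420.4 to 600.7 and 358.8 to 519.6, and Sdc4, the syndecan of focal adhesions, 464.7 to 768, 421.4 to 569.7 and 407.1 to 668.6. In all 6 the genotypes overlapped.

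The intervals bound how far these members could have moved. Leaving out Gpc5, the 95% intervals from the blocked fit lay within -0.45 to 0.42 on the log2 scale for the 8 members not called in CdxKO against WT, within -0.48 to 0.25 for 6 in T/BraKO against WT, and within -0.20 to 0.43 for 6 in CdxKO against T/BraKO. Sdc4 in T/BraKO had the lowest of the estimates against WT, at -0.24 (adjusted p 0.224). Gpc5, with 14.6 to 51.1 normalised counts, was too low to bound. Its interval in T/BraKO against WT was -0.35 to 1.72, and DESeq2 gave it no adjusted p there with the block.

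The median log2 fold change of the 10 was 0.04 in CdxKO against WT, beside -0.002 over all genes tested, and 7 were above 0. In T/BraKO against WT it was -0.03 beside 0, with 3 above 0, and in CdxKO against T/BraKO 0.07 beside -0.01, with 7 above 0. These comparisons share libraries.

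More members were called for the replicate number than for genotype. The number came from the titles, which call it a biological replicate, and what it marks beyond that (a day, a passage) is not given there. Rn45s, a ribosomal RNA precursor, took 1.69% to 4.21% of counts in the replicate 1 libraries and 0.343% to 0.992% in the others. In each genotype the replicate 1 library also had the fewest counts. The part of these differences in the member results was not tested. In a likelihood ratio test of the number beside genotype, 8 of 10 members were called, where 47.9% of all genes were, and the members without a call were Gpc1 (adjusted p 0.119) and Gpc5 (0.856). Sdc1 had the smallest adjusted p, 2.04e-13, and its replicate 2 libraries were lower than its replicate 1 libraries by 0.51 on the log2 scale (SE 0.066). Its replicate 2 library was the lowest and its replicate 1 library the highest in all 3 genotypes.

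Sdc4 and Gpc4 had the opposite pattern, with the replicate 2 library the highest in all 3 genotypes. Replicate 2 exceeded replicate 1 by 0.63 for Sdc4 (SE 0.12, adjusted p for the number 4.43e-06) and by 0.29 for Gpc4 (SE 0.092, adjusted p 4.66e-07). Gpc3 (adjusted p 0.00085) and Gpc6 (0.000168) were highest in replicate 1 and lowest in replicate 3 in all 3 genotypes, Gpc2 (0.00346) and Sdc2 (0.00367) were lowest in replicate 3, and Sdc3 (0.00048) was highest in replicate 1.

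Over the 9 libraries, the genes whose log2 normalised counts followed Gpc3 most closely, of 12315 compared, were Chrna7, a subunit of nicotinic acetylcholine receptors (Pearson r = 0.953), and Atraid (0.947). For Gpc6 they were Itga6, the laminin receptor subunit alpha 6 (0.974), and Lmbrd1, a lysosomal cobalamin transporter (0.972), and for Sdc1 they were Ubl7 (0.988) and Cdk4, a cyclin-dependent kinase of G1 (0.986). These values describe 9 points that share genotypes and replicate numbers.

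The other genes of the heparan sulphate pathway were read from 8 lists holding 59 genes. In CdxKO against WT none was called without the block, beside 0.693% of all genes, and 4 were called with it, 7.55% of those tested beside 5.31%. In T/BraKO against WT 2 were called without the block (3.39% beside 1.08%) and 7 of 48 tested with it (14.6% beside 9.68%). In CdxKO against T/BraKO 3 were called without the block (5.36% beside 3.48%) and 9 with it (16.7% beside 14.6%). No gene of the chain linker enzymes (6), the chain polymerases Ext1, Ext2 and Extl1 to Extl3 (5), the sulphate and sugar donor supply (6) or the syndecan cytoplasmic partners (7) was called in any comparison. Ext1 and Ext2, which together polymerise the chain, had blocked log2 fold changes in T/BraKO against WT of 0.11 (SE 0.068) and -0.04 (SE 0.070). Of the 16 chain-modifying enzymes, Hs3st3a1 and Hs3st3b1, which add the rare 3-O-sulphates, rose in T/BraKO with the block only, by 0.69 (SE 0.23, adjusted p 0.0341, or 1 without the block) and 0.55 (SE 0.17, adjusted p 0.0184, or 0.665 without).

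**Figure D5:**
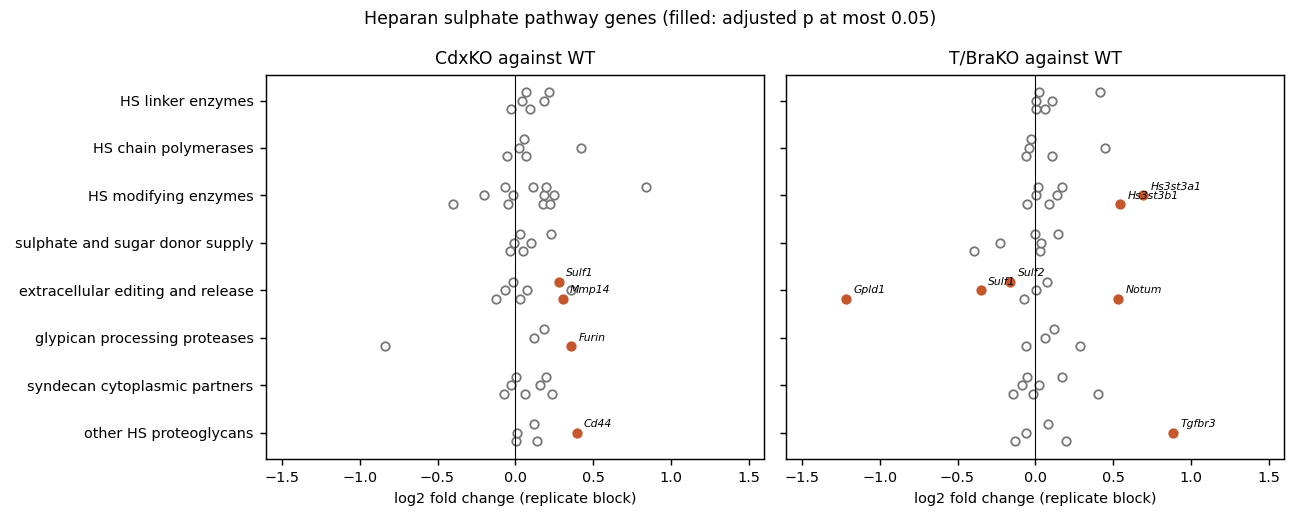
Log2 fold change with the replicate block for the pathway genes that had an adjusted p, 53 for CdxKO and 48 for T/BraKO, each against WT, by list; filled points had an adjusted p of at most 0.05, and height within a list carries no value. The called genes are in the lists for modification, extracellular editing and release, processing proteases and other proteoglycans.

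Of the 7 pathway genes called in T/BraKO against WT with the block, 4 were among the 9 that edit or release the finished proteoglycan. Of those 9, 7 were tested there, beside 9.68% called over all genes. The 4 did not share a direction, with Gpld1, Sulf1 and Sulf2 lower and Notum higher. Without the block only Gpld1 was called. Gpld1, a phospholipase that can cut GPI anchors, had 70.9, 124 and 67.1 normalised counts in WT, 129, 110 and 91.2 in CdxKO and 30.9, 37.6 and 41.3 in T/BraKO. All T/BraKO libraries were below the rest, and Gpld1 fell by 1.25 on the log2 scale against WT (SE 0.32, adjusted p 0.0144 without the block). Sulf1, which removes 6-O-sulphates from chains outside the cell, had 7038 to 9708 normalised counts in WT, 8756 to 10850 in CdxKO and 5232 to 8106 in T/BraKO. With the block Sulf1 rose in CdxKO by 0.28 (SE 0.075, adjusted p 0.00748, or 1 without the block) and fell in T/BraKO by 0.35 (SE 0.075, adjusted p 0.00016, or 1 without). Its paralogue Sulf2 fell in T/BraKO by 0.16 (SE 0.051, adjusted p 0.0236 with the block, or 1 without).

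Notum, a secreted esterase that inactivates WNT and was first tied to glypicans, rose in T/BraKO by 0.53 with the block (SE 0.11, adjusted p 0.000119, or 1 without). In CdxKO the protease Furin, which cleaves glypican core proteins, rose by 0.36 (SE 0.10, adjusted p 0.00975 with the block, or 0.98 without) and Mmp14, a membrane protease that can shed Sdc1, by 0.30 (SE 0.084, adjusted p 0.01, or 0.294 without).

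Among other proteoglycans that can carry heparan sulphate, Tgfbr3 (betaglycan, a co-receptor for TGF-beta) had the smallest adjusted p in T/BraKO. It had 797, 973 and 1059 normalised counts in WT, 893, 905 and 1026 in CdxKO and 1474, 1747 and 2016 in T/BraKO, so that all T/BraKO libraries were above the rest. Tgfbr3 rose by 0.89 in T/BraKO against WT (SE 0.16, adjusted p 5.95e-06 without the block). Cd44, the hyaluronan receptor, rose in CdxKO by 0.39 with the block (SE 0.080, adjusted p 6.35e-05, or 0.778 without).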

How the data were processed

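The authors trimmed single-end, strand-specific reads with cutadapt 1.16, and quantified them with STAR 2.5.2a and RSEM 1.3.0 against mm10 RefSeq genes. They deposited expected counts and TPM per gene, and the submitters' notes also name DESeq2 1.16.1. Here the deposited expected counts, of which 3.75% to 4.00% per library were fractional, were rounded and tested in R 4.3.3 with DESeq2 1.42.0 (Wald test, genotype, all 9 libraries, Benjamini-Hochberg adjusted p of at most 0.05 over all genes). The deposited TPM values were only described. A replicate block, edgeR 4.0.16, TMM scaling, a minimum of 10 counts in 3 libraries and leaving out libraries were alternatives, and the scripts were tested on simulated data. Intervals are 95% Wald intervals.

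Groups and replicate numbers came from the titles. Over 12316 genes averaging 50 or more normalised counts, deviations from group means correlated at 0.532 to 0.814 in all 9 same-numbered pairs and at -0.690 to 0.134 in the 18 others, and the numbers were taken to pair the libraries. Deviations within a group cancel, so positive values in same-numbered pairs force the others to be negative on average. The titles call the libraries biological replicates and give all of them the same tag (EXP5). The paper states in general that its statistics rest on at least 3 independent experiments. Nothing in the labels says that cultures were independent beyond their replicate numbers, so p-values measure the spread between these samples. A count of 3 equalled 0.0864 to 0.119 CPM, a limit from counting error only. Members and gene lists were chosen with earlier results of these data known. The text names all members, the list genes called in at least 1 comparison or that a result turns on, and the 2 genes most correlated with each called member. Promoters are from RefSeq on GRCm38.p6, and coordinates from GENCODE M21.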

Additional observations from a re-analysis of the deposited data

Results flagged for a closer look

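The effects of the mutants differed from each other, by the direct test of CdxKO against T/BraKO with the replicate block in DESeq2, for 3 members and for 12 listed genes, in a comparison in which 14.6% of all genes tested did. On the log2 scale, CdxKO minus T/BraKO, the members were Gpc3 (0.37), Gpc6 (0.27) and Sdc1 (-0.32). Higher in CdxKO were Gpld1 (1.58), Sulf1 (0.63), Cd44 (0.45), Furin (0.42), Agrn, the basement membrane proteoglycan agrin (0.27), and Mmp14 (0.23). Higher in T/BraKO were Tgfbr3 (-0.89), Hs3st3a1 (-0.89), Notum (-0.55) and, around Gpc3, Hprt (-7.47), Mospd1 (-0.38) and Phf6 (-0.26). Without the block Gpld1 (adjusted p 8.19e-05), Tgfbr3 (2.15e-06), Sulf1 (0.0397) and Hprt kept an adjusted p of at most 0.05.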

How the results depend on the processing

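The estimates of Gpc3, Gpc6 and Sdc1 in T/BraKO kept their direction in every alternative, and no called value changed sign. Counts of members called depended on the replicate block. Without it DESeq2 called 0, 1 and 0 members in CdxKO against WT, T/BraKO against WT and CdxKO against T/BraKO, and with it 1, 3 and 3. edgeR called 0, 0 and 0 without the block and 0, 3 and 3 with it. A blocked fit to the 6 libraries compared, chosen after seeing the data, called 0, 2 and 2. Leaving out each library without the block gave 0 to 1 in T/BraKO against WT and 0 in the others.

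With the block and 1 library left out, also chosen after seeing the data, 0 to 1, 1 to 2 and 1 to 3 members were called. In CdxKO against WT the count was 1 without WT replicate 3, CdxKO replicate 3 or T/BraKO replicate 2. In T/BraKO against WT it was 1 without WT replicate 1 or 2 and 2 otherwise. In CdxKO against T/BraKO it was 1 without CdxKO replicate 3, 2 without CdxKO replicate 1 or T/BraKO replicates 1 and 3, and 3 otherwise. The cause was not tested. TMM factors, the count filter, the 6 libraries without the block and an adjusted p of at most 0.01 changed none of these counts. At the cut of 0.01 DESeq2 chose its filter anew and tested 16016 genes in T/BraKO against WT, where the main fit tested 18900. The Gpc3 value of the main fit, 0.0117, does not itself meet that cut. The test of the replicate number called 8 members with TMM factors, the count filter, an adjusted p of at most 0.01 or edgeR, and 6 to 8 when 1 library was left out. By CPM, which ignores length, in place of TPM, Gpc1 led the WT order and Gpc6 moved from rank 8 to 4.

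Over all genes the block raised the calls from 116 to 736, 205 to 1237 and 558 to 2187 in the same order of comparisons, and edgeR without the block called 16, 56 and 237. The depth limits Gpc5 most.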
